A study of Mus musculus with 12 samples.

Results

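All 12 arrays of the study were used to compare mouse neurospheres after 108 h of culture with neurospheres after 24 h, 6 arrays against 6, with the kind of culture kept as a term of the fit. Neurospheres are floating balls of neural stem and progenitor cells, here derived from the cortex of embryos of gestational day 12.5 and grown without serum in the presence of basic FGF, EGF and LIF. The groups, of 3 arrays each, were prominin cultures at 108 h, control cultures at 108 h, prominin cultures at 24 h and control cultures at 24 h. The prominin cultures were given an adenovirus that expresses CD133, named R-prominin1 in the labels. Control cultures had growth medium only according to the treatment text, although the design text speaks of GFP positive neurospheres, so virus and prominin-1 cannot be told apart. For the prominin samples titled 24 h the treatment text states 108 h, and the times of the titles were used. The strain of the neurospheres is not given in the sources used here, and whether replicates were separate cultures is not stated either, so the spread behind each p-value may be technical. Each array set sample RNA (Cy5) against 1 shared RNA of whole embryos of gestational day 12 from C57/Bl6 mice (Cy3), with no dye swap. The values are log2 ratios to that embryo RNA, taken as sample over embryo since the direction is not stated, and centred so that 0 is the median probe of each array. A difference of 1 is a change by a factor of 2 relative to the median probe.

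Neurospheres grow because EGF and FGF keep their cells dividing, while signals within the sphere, contact between cells and the supply of medium change as the culture ages. FGF and EGF act through receptor tyrosine kinases and ERK, and this pathway switches on its own inhibitors, such as Dusp6 and the Sprouty genes, together with the D-type cyclins. Radial glia of the embryonic cortex make neurons first and astrocytes and oligodendrocytes later, and LIF favours the astrocyte fate. All of this is general background, and none of it was measured directly here.

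The arrays of the 2 times differed in quality as well as in culture time. Of 21738 probes, 15944 to 16598 were measured per 108 h array and 10404 to 14465 per 24 h array. Ratios of small whole numbers, which dim spots can give, were 1.75 to 4.94% of the values on 108 h arrays and 16.5 to 39.2% on 24 h arrays. The 24 h arrays with the fewest measured probes were replicate 1 of the control cultures and replicate 1 of the prominin cultures. Since every 108 h array had more measured probes than every 24 h array, array quality and culture time cannot be told apart. Before centring, the array medians averaged 0.19 lower at 108 h (a difference of −0.19 on the log2 scale), which the centring took out. The medians of the stem cell and astrocyte lists lay above the median probe on every array, and that of the oligodendrocyte list at 1.68 to 4.89 at 108 h and −0.18 to 3.58 at 24 h. Per array, the median of the neural stem and radial glia list was 2.01 to 2.63 at 108 h and 1.68 to 3.30 at 24 h, and that of the astrocyte list 3.36 to 4.26 at 108 h and 2.91 to 5.02 at 24 h. The fibroblast and meninges list lay far below the median probe, at −5.08 to −2.93 at 108 h and −5.30 to −2.20 at 24 h.

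**Figure D1:**
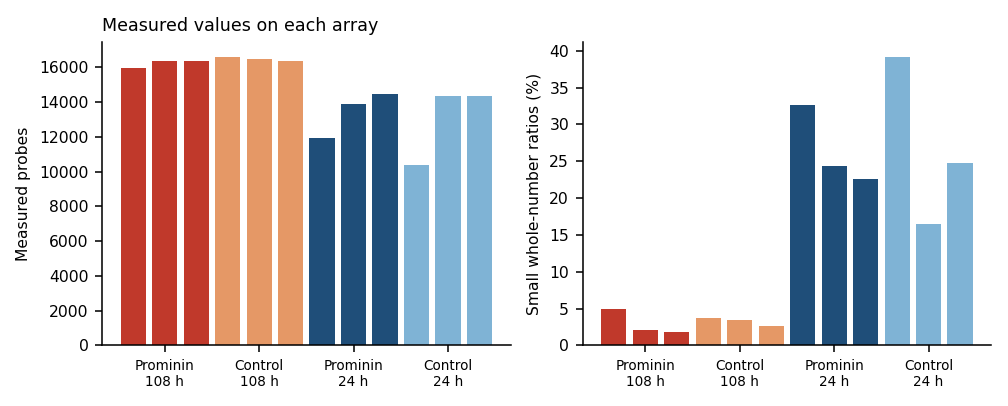
Number of measured probes (left) and share of measured values that are ratios of small whole numbers, in percent (right), 1 bar per array, in the order prominin 108 h, control 108 h, prominin 24 h and control 24 h. The 6 arrays at 108 h have 15944 to 16598 measured probes and the 6 at 24 h have 10404 to 14465.

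The comparison of times asked which genes moved with culture time in both kinds of culture. Of 10430 probes with at least 4 values at each time, 5 passed (limma, Benjamini-Hochberg adjusted p under 0.05), which is 0.0479% of the probes. There were 4 higher at 108 h (0.0384%) and 1 lower (0.00959%). All 5 (0.0479%) had the same sign in prominin and in control cultures, beside 52.8% of all probes with a shared sign. A small p in the pooled fit favours probes that move alike in both cultures, so this is no separate test. Apoe, the lipid carrier of astrocytes, Hba-a1, an alpha-globin gene, and Zfp455, a zinc finger gene, rose, as did the probe AF071431, which has no gene name here. Col5a3, a chain of type V collagen, fell. The number of arrays and the spread between them limit what could pass: the median SE of a difference was 0.75 and the median residual SD 1.26. At an unadjusted p under 0.05 there were 954 probes (9.15%), of which 432 were higher (4.14%) and 522 lower (5%). The 6 arrays at 108 h and the 6 at 24 h did not overlap for 205 probes (1.97%), 112 higher (1.07%) and 93 lower (0.892%).

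The count of calls depended on single arrays and on the treatment of missing values. Without 1 array it was 17 (without control 24 h replicate 1), 6 (without prominin 24 h replicate 1), 1 (without replicate 2 or 3 of either 24 h culture) and 2 or 3 (without any 1 of the 108 h arrays). Quantile normalization gave 3 higher and 3 lower in place of 4 higher and 1 lower. Among the 4532 probes with a value on all 12 arrays, 26 passed (15 higher, 11 lower), and Clu, Mt1, Rplp1 and Rpl41 (higher) and Nrgn, Rassf3, Commd9, Smoc1, Ccnd2 and Errfi1 (lower) were among them. The probe AF071431 passed in all 28 alternatives that measured it, Zfp455 in 20 of 24, Col5a3 in 17, Hba-a1 in 15 and Apoe in 11 of 29.

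Prominin and control cultures shared no array, so their changes with time can be set side by side. Array quality differed between the times in both, so a shared sign cannot tell culture time from array quality. Over all 10430 probes the prominin differences and the control differences correlated only weakly (Pearson r = 0.097, Spearman rho = 0.087, across probes, which are not independent replicates). The sign was the same in both for 5507 probes (52.8%), and 5014 probes had a higher value at 108 h in the pooled fit (48.1%). Over the 3033 probes measured on all 12 arrays with no ratio of small whole numbers, r was 0.185 and the sign was shared by 54.7%. An unadjusted p under 0.05 in prominin and again in control cultures, with the same sign, was found for 92 probes (0.882%), 44 higher (0.422%) and 48 lower (0.46%). With opposite signs there were 22 (0.211%). Within prominin cultures alone 2 probes passed after adjustment (0.0192%), and within control cultures alone 0 passed (0%). The interaction of time and culture gave 0 adjusted calls (0%) and 609 probes at an unadjusted p under 0.05 (5.84%).

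**Figure D2:**
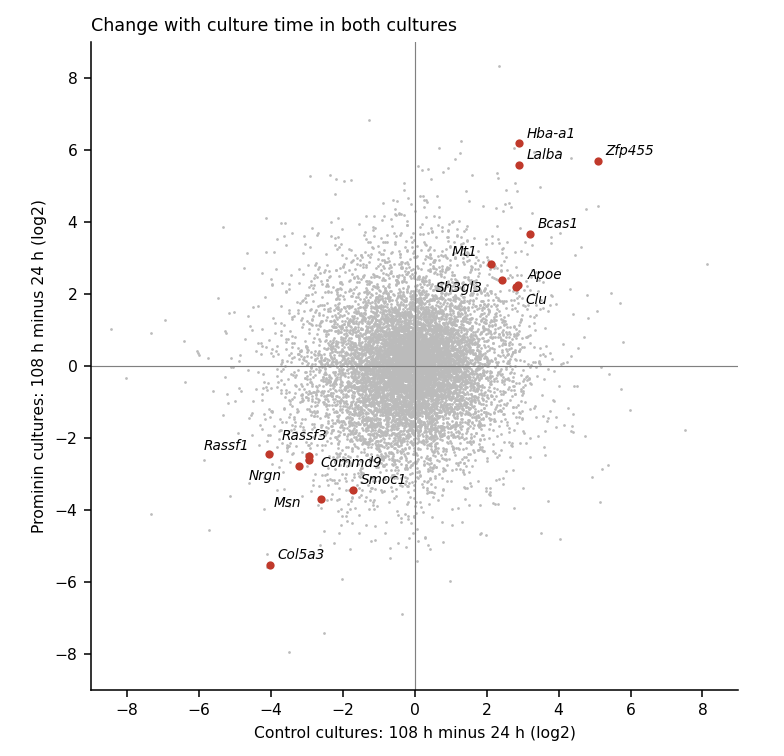
Difference of 108 h minus 24 h (log2) in control cultures (x axis) and in prominin cultures (y axis), with 1 grey point for each of the 10430 probes. Red points are the named genes with the smallest p in the pooled test among probes with the same sign in both cultures. By that choice they lie in the upper right (Apoe at 2.87 and 2.26) or the lower left (Col5a3 at −4.02 and −5.53). The cloud of all probes is nearly round (r = 0.097).

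Both apolipoprotein genes of the astrocyte list were among the named genes with higher values. Apoe encodes apolipoprotein E, which astrocytes secrete to carry cholesterol and other lipids between cells of the brain. Its values at 108 h were 0.68, 0.70 and 1.17 in prominin cultures and 1.76, 1.47 and 1.01 in control cultures, against −1.14, −1.52 and −1.57 in prominin cultures and −2.00, −0.90 and −1.46 in control cultures at 24 h. Every 108 h array lay above every 24 h array, and the cultures lay close together at each time. The mean was 1.13 ± 0.43 at 108 h and −1.43 ± 0.38 at 24 h (SD, n = 6 each), a difference of 2.56 (SE 0.39, limma adjusted p = 0.0435). Clu encodes clusterin, also called apolipoprotein J, a secreted chaperone. It ranged from 2.63 to 4.24 at 108 h (median 3.01) and from 0.10 to 0.98 at 24 h (median 0.85). The groups did not overlap, yet its difference of 2.52 (SE 0.43) did not pass (limma adjusted p = 0.0656). It was 2.21 in prominin cultures and 2.82 in control cultures.

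Mt1 encodes metallothionein 1, a small protein that binds zinc and copper and is made in response to metals, glucocorticoids and oxidants. It ranged from 0.32 to 1.77 at 108 h (median 0.72) and from −2.58 to −0.96 at 24 h (median −1.61). The groups did not overlap, with the highest value on replicate 3 of the 108 h prominin cultures. The difference was 2.48 (SE 0.43, limma adjusted p = 0.0656), 2.84 in prominin cultures and 2.11 in control cultures. The metallothionein promoters are textbook examples of metal response elements, which is why that of Mt1 is shown. The window from RefSeq (GRCm38.p6, chr8:94178839-94179138, plus strand) runs from 250 bases before to 50 after the start of the gene. Capitals mark the core of the element, searched on both strands as TGCACNC (2 matches) and TGCGCNC (1 match). Of 27025 genes with such a window, 28.23% hold either form.
Mt1: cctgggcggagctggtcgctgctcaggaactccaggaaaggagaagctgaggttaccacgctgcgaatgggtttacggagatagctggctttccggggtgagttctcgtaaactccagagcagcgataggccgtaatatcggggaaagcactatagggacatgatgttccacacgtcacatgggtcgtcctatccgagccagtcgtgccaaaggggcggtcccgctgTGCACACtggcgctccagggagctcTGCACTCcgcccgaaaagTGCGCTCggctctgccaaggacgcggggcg
The brain metallothionein Mt3, by contrast, had values of 4.69 to 6.82 at 108 h and 6.12 to 7.81 at 24 h, a difference of −1.55 (SE 0.49, limma adjusted p = 0.35) with overlapping groups.

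Other named genes with higher values came from unrelated processes. Bcas1 marks oligodendrocytes that are starting to make myelin. It lay at 6.86 to 9.70 on 6 arrays at 108 h (median 7.93) and at 3.46 to 5.42 on 5 arrays at 24 h (median 4.69), a difference of 3.47 (SE 0.58, limma adjusted p = 0.0656). Ratios of small whole numbers made up 2 of those 5 values at 24 h. Sh3gl3 encodes endophilin A3, a protein that bends membranes in endocytosis. It lay at 1.98 to 3.06 on 6 arrays at 108 h (median 2.76) and at 0.00 to 0.74 on 5 arrays at 24 h (median 0.10), a difference of 2.41 (SE 0.41, limma adjusted p = 0.0656). Lalba, the gene of the milk protein alpha-lactalbumin, was 4.24 higher (SE 0.71, limma adjusted p = 0.0697, 6 and 4 values). Of its 4 values at 24 h, 2 were ratios of small whole numbers. Zfp455 had values of 1.98 and 1.41 in prominin cultures and 0.88, 0.63 and 0.86 in control cultures at 108 h, against −4.73 and −3.29 in prominin cultures and −4.04 and −4.55 in control cultures at 24 h. It had no value on replicate 3 of the 108 h prominin cultures or on either 24 h replicate 1. The difference was 5.37 (SE 0.53, limma adjusted p = 0.00993). The unnamed probe AF071431 had the smallest p of all, with values of −2.24 to −1.08 at 108 h (median −1.55) and −7.76 to −4.92 at 24 h (median −6.82), a difference of 4.98 (SE 0.52, limma adjusted p = 0.00373). For each of these genes the groups did not overlap.

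Hba-a1, an adult-type alpha-globin gene of red cells, rose by 4.54 (SE 0.69, limma adjusted p = 0.0435). At 108 h its values were 0.66, −0.34 and −0.28 in prominin cultures and −1.03, −2.98 and −1.91 in control cultures, and at 24 h −5.21, −6.83 and −6.50 in prominin cultures and −4.19, −4.62 and −5.79 in control cultures. Both cultures were higher at 108 h, by 6.19 in prominin cultures and by 2.89 in control cultures. Red cell genes did not move together. Of 12 probes of the erythroid list 4 were higher and 8 lower, with a median of −0.64 beside −0.04 over all probes tested. The 4 higher probes were those of the globin genes Hba-a1, Hba-x and Hbb-y. At an unadjusted p under 0.05 there were 3 higher and 1 lower, beside 4.14% higher and 5% lower over all probes. The embryonic globin genes had overlapping values, with Hba-x at 2.25 (SE 0.86, limma adjusted p = 0.469) on 1 probe and 0.45 (SE 0.59) on the other, and Hbb-y at 1.88 (SE 0.82, limma adjusted p = 0.525). In prominin cultures the 2 probes of Hba-x lay at 4.56 and 1.32 and Hbb-y at 3.22. In control cultures they lay at 0.33 and 0.02 and Hbb-y at 0.54. With exact 0 kept as a value, that second probe of Hba-x lay at −1.69 and Hbb-y at −0.80. Gata1, the transcription factor of red cell precursors, was lower by 2.87 (a difference of −2.87, SE 0.90, limma adjusted p = 0.373). Per array the median of the erythroid list was −4.97 to −1.77 at 108 h and −5.79 to −1.99 at 24 h. Whole-embryo RNA, the reference of every array, contains blood, and the part of low sample signal in these ratios was not tested.

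Genes listed for the liver and other embryonic tissues outside the nervous system had mostly higher values. Whether neurosphere cells themselves make these RNAs was not tested. Of 18 probes 12 were higher and 6 lower at 108 h (median 1.04), 4 higher and 0 lower at an unadjusted p under 0.05 (over all probes 4.14% and 5%), and none passed. Those 4 were probes of the genes Alb and Trf alone. The median change of the list was 2.32 in prominin cultures and 0.27 in control cultures, a difference that was not tested for the list. Alb, the albumin gene, ranged from −5.00 to −1.15 at 108 h and from −7.24 to −3.79 at 24 h, a difference of 2.29 (SE 0.78, limma adjusted p = 0.402). This was 3.92 in prominin and 0.66 in control cultures. Trf, the transferrin gene, had 4 probes with differences of 1.70 to 2.76, none past the threshold, and the probe at 2.76 lay at 1.45 without control 108 h replicate 2. That probe lay at 2.53 in prominin and 2.94 in control cultures. The other Trf probes lay at 2.89 to 3.24 in prominin and 0.40 to 0.85 in control cultures. Leaving out 1 array moved the list median, relative to all probes, between 0.56 (without prominin 24 h replicate 2) and 1.71 (without control 24 h replicate 1), and it was −0.24 with exact 0 kept as a value.

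**Figure D3:**
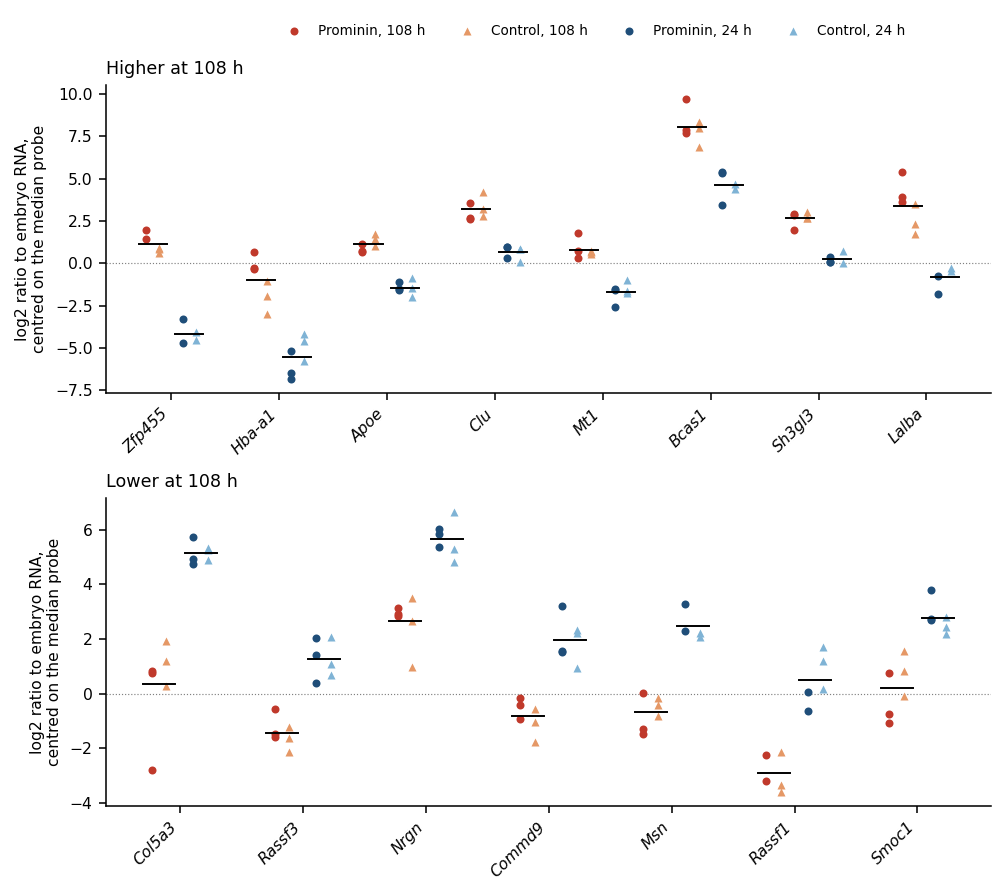
Log2 ratio to embryo RNA, centred on the median probe, of the 8 named genes with higher values (top) and 7 with lower values (bottom) at 108 h, 1 point per array, with the bar at the mean of each time. Circles are prominin and triangles control cultures, warm colours 108 h and blue 24 h. For each gene the 108 h points and the 24 h points do not overlap, as with Apoe at 0.68 to 1.76 at 108 h and −2.00 to −0.90 at 24 h.

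Among the named genes with lower values, Col5a3 fell by 4.78 on the log2 scale (SE 0.66, limma adjusted p = 0.0285). Its values at 108 h were 0.77, −2.79 and 0.81 in prominin cultures and 0.27, 1.20 and 1.94 in control cultures. At 24 h they were 4.75, 5.72 and 4.92 in prominin cultures and 4.89, 5.33 and 5.26 in control cultures. The 24 h arrays were tightly grouped, and replicate 2 of the 108 h prominin cultures lay far below the rest. Without that replicate the difference was −4.16. Col5a3 is not on the fibroblast list. Of the collagen genes on that list, Col1a1 (2.10) and Col1a2 (1.01) had higher and Col3a1 (−1.78) lower values. The list had 6 probes higher and 7 lower with none past the threshold.

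Smoc1, another gene of the cell surroundings, encodes a secreted calcium-binding protein of the matrix. It lay at −1.07 to 1.55 at 108 h and at 2.18 to 3.79 at 24 h, a difference of −2.57 (SE 0.53, limma adjusted p = 0.15). Nrgn encodes neurogranin, a calmodulin-binding protein best known from the dendrites of neurons. Its values were 0.99 to 3.48 at 108 h (median 2.88) and 4.82 to 6.64 at 24 h (median 5.61), a difference of −3.00 (SE 0.51, limma adjusted p = 0.0656). Msn encodes moesin, which ties the plasma membrane to actin. It ranged from −1.47 to 0.03 on 6 arrays at 108 h and from 2.09 to 3.28 on 4 arrays at 24 h, a difference of −3.15 (SE 0.53, limma adjusted p = 0.0697). In these genes too the times did not overlap.

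A pair of genes of the Ras-association domain family, whose members bind Ras-like proteins and restrain growth, had lower values. Rassf3 lay at −2.13 to −0.58 at 108 h (median −1.54) and at 0.38 to 2.07 at 24 h (median 1.25), a difference of −2.72 (SE 0.46, limma adjusted p = 0.0656). Rassf1 lay at −3.60 to −2.15 on 5 arrays at 108 h and at −0.62 to 1.69 on 5 arrays at 24 h, a difference of −3.40 (SE 0.58, limma adjusted p = 0.0764). Commd9, a member of a protein complex that recycles receptors from endosomes, lay at −1.78 to −0.15 at 108 h and at 0.94 to 3.20 at 24 h, a difference of −2.77 (SE 0.47, limma adjusted p = 0.0656). None of these genes had overlapping times. The same sign in both cultures was a condition for naming them. The differences were −2.50 in prominin and −2.94 in control cultures for Rassf3 and −2.45 in prominin and −4.04 in control cultures for Rassf1. For Commd9 they were −2.60 in prominin and −2.95 in control cultures.

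The genes of cholesterol and fatty acid synthesis were split, with 8 of 18 probes higher and 10 lower (median −0.20), and none passed. At an unadjusted p under 0.05 there were 0 higher and 4 lower, beside 4.14% higher and 5% lower over all probes. Among the 4 lower were the sterol-sensing factor gene Srebf2 (−1.42, SE 0.52), the squalene synthase gene Fdft1 (−1.07, SE 0.42) and the citrate lyase gene Acly (−1.18, SE 0.52; −0.77 without control 108 h replicate 1). With probes averaged to genes Srebf2 lay at 0.02.

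Genes of cell division had mostly lower values at 108 h. Of 16 probes of the mitosis and spindle list 2 were higher and 14 lower, with a median of −0.91 (−0.66 in prominin and −1.29 in control cultures), and 0 higher and 6 lower at an unadjusted p under 0.05, beside 4.14% higher and 5% lower over all probes. Of 20 probes for DNA replication 5 were higher and 15 lower, with a median of −0.98 (−0.65 in prominin and −1.18 in control cultures), and 0 higher and 5 lower at that level. No member of either list passed after adjustment. Per array, the median of the mitosis list was −3.29 to −1.44 at 108 h and −1.55 to −0.53 at 24 h, and that of the replication list −3.03 to −1.73 at 108 h and −1.91 to −1.30 at 24 h. Leaving out 1 array kept the medians, relative to all probes, at −1.25 to −0.64 for mitosis and −1.05 to −0.91 for replication. In bulk RNA, fewer dividing cells and less RNA per dividing cell cannot be told apart.

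Cdk1, the kinase that starts mitosis, had values of −4.25, −3.69 and −3.83 in prominin cultures and −3.48, −3.67 and −7.71 in control cultures at 108 h, against −2.37, −1.27 and −0.32 in prominin cultures and −1.80, −0.68 and −1.26 in control cultures at 24 h. All 6 arrays at 108 h lay below all 6 at 24 h, with replicate 3 of the control cultures lowest. The difference was −3.16 (SE 0.72, limma adjusted p = 0.182) and −2.48 without that replicate. Aurka, the Aurora A kinase of the spindle poles, ranged from −3.40 to −2.76 on 5 arrays at 108 h and from −2.96 to 0.33 on 6 arrays at 24 h, a difference of −2.29 (SE 0.63, limma adjusted p = 0.302). Further spindle genes, namely Nusap1 (−2.73, SE 0.67), Prc1 (−2.08, SE 0.65) and Kif23 (−2.80, SE 1.06), had differences of like size. The polo-like kinase gene Plk1 lay at −1.31 (SE 0.52) on 1 probe and at 1.16 (SE 0.71) on the other. For replication, Gins2 of the replicative helicase lay at −2.13 (SE 0.74), the ribonucleotide reductase gene Rrm2 at −1.32 (SE 0.49), the flap endonuclease gene Fen1 at −1.41 (SE 0.53) and the helicase gene Mcm2 at −0.97 (SE 0.38). Ratios of small whole numbers made up 3 of the 4 values of Gins2 at 24 h and 2 of the 4 of Kif23.

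Many mitotic genes share a pair of promoter elements, CCAAT boxes and a cell cycle homology region, and the promoters of Cdk1 and Aurka are shown as examples that hold both. Cdk1 had the smallest p of the list and Aurka the third, and Nusap1, which lies between them, holds neither motif. RefSeq (GRCm38.p6) places the Cdk1 window at chr10:69352863-69353162 and the Aurka window at chr2:172370521-172370820, both on the minus strand, with the same span around the gene start as for Mt1. Capitals mark CCAAT on either strand (ATTGG on the other) and TTTGAA, the core of the cell cycle homology region, also searched on both strands.
Cdk1: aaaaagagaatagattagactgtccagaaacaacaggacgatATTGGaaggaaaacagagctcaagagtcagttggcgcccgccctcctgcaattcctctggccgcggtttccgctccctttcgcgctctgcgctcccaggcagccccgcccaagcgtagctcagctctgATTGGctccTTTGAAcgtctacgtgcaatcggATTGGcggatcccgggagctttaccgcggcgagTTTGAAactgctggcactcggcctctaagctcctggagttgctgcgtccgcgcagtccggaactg
Aurka: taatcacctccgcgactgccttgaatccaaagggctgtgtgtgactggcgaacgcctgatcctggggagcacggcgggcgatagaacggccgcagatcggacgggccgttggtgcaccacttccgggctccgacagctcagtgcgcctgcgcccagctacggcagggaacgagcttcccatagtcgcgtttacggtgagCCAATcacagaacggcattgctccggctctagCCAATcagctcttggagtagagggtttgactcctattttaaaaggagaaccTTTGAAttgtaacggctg
The Cdk1 window holds 3 matches to CCAAT and 2 to TTTGAA, and the Aurka window holds 2 and 1. Of the 15 genes of the mitosis list that were tested, 13 had a window. CCAAT was in 12 of these (92.31%) and TTTGAA in 11 (84.62%), beside 41.06% and 20.23% of all 27025 genes. Both motifs together were in 11 (84.62%), beside 7.974% of all genes. Among the 6 genes with an unadjusted p under 0.05 and lower values, 5 held both and Nusap1 neither. These are matches of letters and say nothing of binding.

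**Figure D4:**
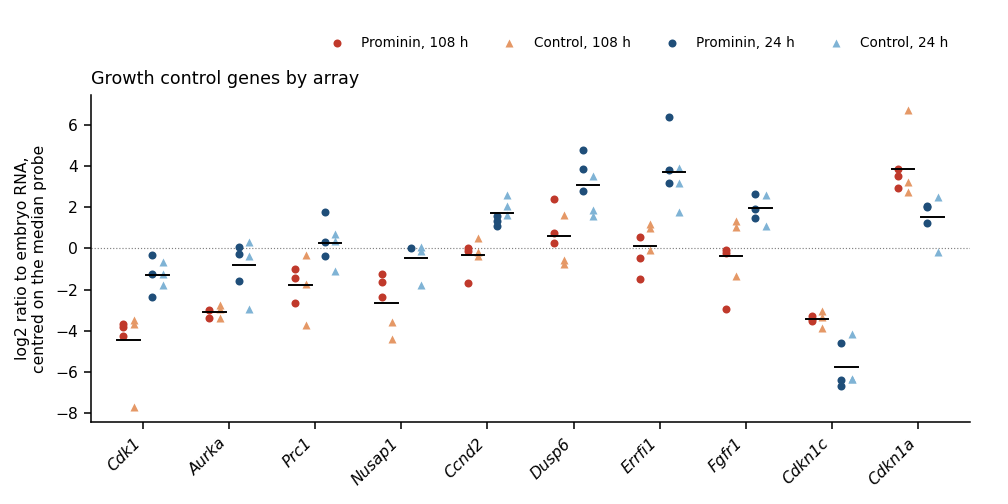
Log2 ratio to embryo RNA, centred on the median probe, of mitosis, growth factor and cell cycle inhibitor genes, 1 point per array, with the bar at the mean of each time and the same colours as for the leading genes. Cdk1 lies at −7.71 to −3.48 at 108 h and −2.37 to −0.32 at 24 h, whereas Cdkn1c lies at −3.88 to −3.06 at 108 h and −6.67 to −4.15 at 24 h.

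Inhibitors of the cell cycle had higher values for 2 leading genes, while the list was evenly split. Cdkn1c encodes p57, an inhibitor of cyclin-dependent kinases. It ranged from −3.88 to −3.06 at 108 h (median −3.37) and from −6.67 to −4.15 at 24 h (median −6.35), a difference of 2.33 (SE 0.53, limma adjusted p = 0.182), with 2.46 in prominin cultures and 2.20 in control cultures. Cdkn1a encodes p21, an inhibitor induced by p53. It ranged from 2.76 to 6.71 at 108 h (median 3.36) and from −0.18 to 2.51 on 5 arrays at 24 h (median 2.01), a difference of 2.30 (SE 0.79, limma adjusted p = 0.415). Neither gene had overlapping times. Of the 12 probes of the list 6 were higher and 6 lower, with a median of 0.02.

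The receptors and targets of growth factor signalling had mostly lower values. Of 16 probes 4 were higher and 12 lower (median −0.59, with −0.38 in prominin and −0.73 in control cultures), 0 higher and 2 lower at an unadjusted p under 0.05 (over all probes 4.14% and 5%), and none passed. The list median relative to all probes was −0.74 to −0.28 when 1 array was left out, and −0.28 without control 24 h replicate 2. Over all 29 alternatives it was −0.92 to −0.12. Dusp6, the phosphatase that ERK induces against itself, ranged from −0.78 to 2.41 at 108 h and from 1.56 to 4.78 at 24 h, a difference of −2.44 (SE 0.63, limma adjusted p = 0.262). Fgfr1, a receptor of basic FGF, lay at −2.39 (SE 0.74, limma adjusted p = 0.352), the ERK-induced factor gene Etv4 at −1.42 (SE 0.66) and the Sprouty gene Spry1 at −1.15 (SE 0.63), which was −0.60 without prominin 24 h replicate 2. Egfr, the receptor of EGF, lay at 0.25. The D-type cyclin gene of the list, Ccnd1, lay at −0.24, the 2 probes of Etv5 at 0.59 and −0.25, and the Sprouty gene Spry4 at −0.34. Etv1 lay at 1.16, with −0.62 in prominin and 2.59 in control cultures.

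Some growth factor genes outside that list were chosen after their values were seen. Ccnd2, a D-type cyclin, lay at −1.70 to 0.51 at 108 h and 1.10 to 2.58 at 24 h on 1 probe (−2.01, SE 0.43, limma adjusted p = 0.164) and at −2.54 (SE 0.60, limma adjusted p = 0.195) on the other. Errfi1, an inhibitor that binds the EGF receptor, ranged from −1.46 to 1.19 at 108 h and from 1.77 to 6.39 at 24 h (−3.58, SE 0.74, limma adjusted p = 0.15). Osmr, a receptor chain of cytokines related to LIF, ranged from 0.27 to 2.29 at 108 h and from 2.49 to 4.76 at 24 h (−1.88, SE 0.49, limma adjusted p = 0.268). Nr4a2, an orphan nuclear receptor gene, lay at −3.34 (SE 0.80, limma adjusted p = 0.262). Immediate early genes, which answer within minutes to growth factors, had 5 of 13 probes higher and 8 lower (median −0.46), with Atf3 at 3.32 (SE 1.15), Klf4 at 2.26 (SE 0.86), Ier3 at 1.79 (SE 0.91; 1.02 without control 24 h replicate 2) and Fos at −1.17 (SE 0.56), none past the threshold.

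Lists of neural cell types did not move one way. Of 21 probes of neural stem and radial glia genes 7 were higher and 14 lower (median −0.43), 2 higher and 0 lower at an unadjusted p under 0.05 (over all probes 4.14% and 5%). These were the Notch target gene Hes5 (3.01, SE 1.13, 4 values at each time) and Id3, a target of BMP signals (1.76, SE 0.70, but 0.27 in prominin and 3.61 in control cultures, and 1.06 pooled without control 24 h replicate 2). Hes1, another Notch target, lay at 1.70 (SE 1.06). The stem cell factor gene Sox2 lay at −0.60, the filament genes Nes and Vim at −0.09 and −0.43, and the radial glial gene Fabp7 at −0.06. Prom1 itself, measured on 9 arrays by a probe with 3 ratios of small whole numbers, lay at −0.11 and −0.85 in prominin cultures and −2.51, −2.33 and −4.34 in control cultures at 108 h, against −1.62 and −0.45 in prominin cultures and 1.72 and 0.66 in control cultures at 24 h. The pooled difference of −2.07 (SE 1.00, limma adjusted p = 0.585) combined 0.55 in prominin with −4.25 in control cultures. Whether the probe reads the transferred R-prominin1 was not tested, so Prom1 does not check the labels.

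Of 10 astrocyte probes 5 were higher and 5 lower (median −0.06), and Apoe was the only member that passed. The glial filament gene Gfap lay at −0.31, the calcium-binding gene S100b at −0.33, the water channel gene Aqp4 at 0.49 and the glutamine synthetase gene Glul at 0.72 (SE 0.65). Glul lay at 0.39 without prominin 24 h replicate 1 and turned to −0.39 with quantile normalization. Of 6 oligodendrocyte probes 3 were higher and 3 lower (median −0.70). The lineage factor gene Olig1 ranged from 4.19 to 6.93 at 108 h and from 6.15 to 7.76 at 24 h, a difference of −1.45 (SE 0.48, limma adjusted p = 0.387). Olig2 lay at 0.14 (SE 0.51; −0.046 with no centring and −1.03 with quantile normalization) and the progenitor receptor gene Pdgfra at −2.70 (SE 0.93, limma adjusted p = 0.44). The 2 probes of Mbp, the myelin basic protein gene, disagreed, with 2.99 (SE 0.87) on 1 and −4.55 (SE 1.30) on the other, so no direction can be given. At 24 h, ratios of small whole numbers made up 1 of 5 values of the rising probe and 3 of 4 of the falling probe.

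Neuronal genes had 4 of 14 probes higher and 10 lower (median −0.36). Gap43, a protein of growing axons, lay within −0.15 to 0.22 at 108 h and 0.67 to 1.93 at 24 h, a difference of −1.34 (SE 0.37, limma adjusted p = 0.302) with no overlap. Elavl3, an RNA-binding protein of neurons, lay at 0.27 to 2.88 on 6 arrays at 108 h and −2.57 to −0.28 on 4 arrays at 24 h, a difference of 2.32 (SE 0.73, limma adjusted p = 0.381), also with no overlap. Its relative Elavl4 lay at −1.19 (SE 0.67) and the synaptic vesicle gene Syp at −1.51 (SE 0.90; −0.85 without control 108 h replicate 1). Microglial genes had 3 of 11 probes higher and 8 lower (median −0.39) and endothelial and mural genes 2 of 8 higher and 6 lower (median −0.41), and none passed.

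Genes of cytosolic ribosomal proteins had mostly higher values at 108 h in the pooled fit. Of 41 probes 35 were higher and 6 lower (median 0.83), 12 higher and 0 lower at an unadjusted p under 0.05, and in 8, all higher, the times did not overlap. Over all probes these shares were 4.14% higher and 5% lower at that p, and 1.07% higher with no overlap. None passed after adjustment. The sign was that of the pooled fit in both cultures for 23 of the 41 probes, beside 52.8% over all probes. The list median was 1.50 in prominin and 0.05 in control cultures, a gap that was not tested for the list. Per array the list median was −0.70 to 1.69 at 108 h and −1.26 to −0.62 at 24 h, and relative to all probes the median change was 0.45 without prominin 108 h replicate 3. Rplp1, a protein of the ribosomal stalk, ranged from −0.07 to 2.33 at 108 h and from −2.25 to −0.17 at 24 h, a difference of 2.57 (SE 0.54, limma adjusted p = 0.153), 3.77 in prominin and 1.37 in control cultures. Its partner Rplp2 lay at 2.00 (SE 0.47, limma adjusted p = 0.195), 2.83 in prominin and 1.17 in control cultures. Rpl28 lay at 1.79 (SE 0.47), 2.71 in prominin and 0.86 in control cultures. A further ribosomal gene, Rpl41, was chosen after its values were seen and lay at 1.72 in prominin and 1.61 in control cultures (pooled 1.67, SE 0.40, limma adjusted p = 0.21). The interaction of time and culture passed for no ribosomal gene. Translation factors had 17 of 26 probes higher and 9 lower (median 0.22).

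Genes of the respiratory chain had 23 of 26 probes higher and 3 lower, but the shift was small (median 0.30, with 0.44 in prominin and 0.29 in control cultures). At an unadjusted p under 0.05 there were 1 higher and 0 lower, beside 4.14% higher and 5% lower over all probes. The sign was that of the pooled fit in both cultures for 16 of the 26, beside 52.8% over all probes. The succinate dehydrogenase gene Sdhb lay at 0.87 to 1.19 at 108 h and −0.37 to 0.63 at 24 h (0.74, SE 0.36, limma adjusted p = 0.573) with no overlap. Sdhc lay at 0.95 (SE 0.45), Cox6c at 0.87 (SE 0.45) and the cytochrome c gene Cycs at 1.74 (SE 0.73; 1.07 without control 108 h replicate 1). Genes of glycolysis and hypoxia had 9 of 13 probes higher and 4 lower (median 0.70), and relative to all probes the list median was 0.36 without prominin 24 h replicate 3. Ldha, which turns pyruvate into lactate, ranged from 0.27 to 1.35 at 108 h and from −1.21 to 0.32 at 24 h, a difference of 1.13 (SE 0.41, limma adjusted p = 0.447), 1.15 in prominin and 1.11 in control cultures. The phosphofructokinase gene Pfkp lay at 1.14 (SE 0.46) and the angiogenic factor gene Vegfa at 1.12 (SE 0.61). The oxygen-sensing hydroxylase gene Egln3 lay at 1.96 (SE 0.94), with 3.69 in prominin and 0.23 in control cultures. By contrast, the hypoxia-induced genes Adm and Ndrg1 lay at −1.48 and −2.00. The value of Ndrg1 combined opposite signs, 1.29 in prominin and −6.94 in control cultures. None of either list passed.

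Lysosomal and autophagy genes had 13 of 17 probes higher and 4 lower (median 0.74, with 0.21 in prominin and 0.70 in control cultures), 2 higher and 0 lower at an unadjusted p under 0.05 (over all probes 4.14% and 5%). The protease gene Ctsl ranged from 0.76 to 1.51 at 108 h and from 0.02 to 0.44 at 24 h, a difference of 1.00 (SE 0.36, limma adjusted p = 0.428) with no overlap. The autophagosome gene Map1lc3b ranged from 0.55 to 0.88 at 108 h and from −0.35 to 0.30 at 24 h (0.74, SE 0.36, limma adjusted p = 0.564), also with no overlap. Lgmn, a protease gene, lay at 1.15 (SE 0.53), and the 2 probes of the sphingolipid activator gene Psap at 1.29 (SE 0.65; 0.85 without control 108 h replicate 2) and 0.20 (SE 0.47). Relative to all probes the list median was 0.36 without prominin 108 h replicate 3.

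The oxidative stress list was mixed, with 7 of 12 probes higher and 5 lower (median 0.65). Gpx4, which removes lipid peroxides, ranged from 0.74 to 1.59 at 108 h and from 0.07 to 0.19 at 24 h, a difference of 1.10 (SE 0.36, limma adjusted p = 0.376). Txn1, the thioredoxin gene, ranged from 1.52 to 2.10 at 108 h and from 2.39 to 3.64 at 24 h, a difference of −1.37 (SE 0.39, limma adjusted p = 0.307). Neither pair of groups overlapped, and the signs were opposite. The heme oxygenase gene Hmox1 lay at 1.50 (SE 0.51). The catalase gene Cat lay at 2.01 (SE 0.91), where replicate 2 of the 108 h control cultures stood at 5.61 and the next highest array at 0.76. Without that replicate it was 1.09. The remaining lists had medians of −0.14 (endoplasmic reticulum stress, 6 of 16 probes higher), 0.08 (amino acid starvation, 9 of 16), 0.06 (p53 targets, 7 of 11), 0.12 (proteasome, 15 of 23), 0.13 (Notch, Wnt, BMP and hedgehog, 10 of 19), 0.23 (heat shock, 11 of 15), 0.50 (interferon, 11 of 16) and 0.00 (extracellular matrix, 14 of 28), and none of their probes passed.

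**Figure D5:**
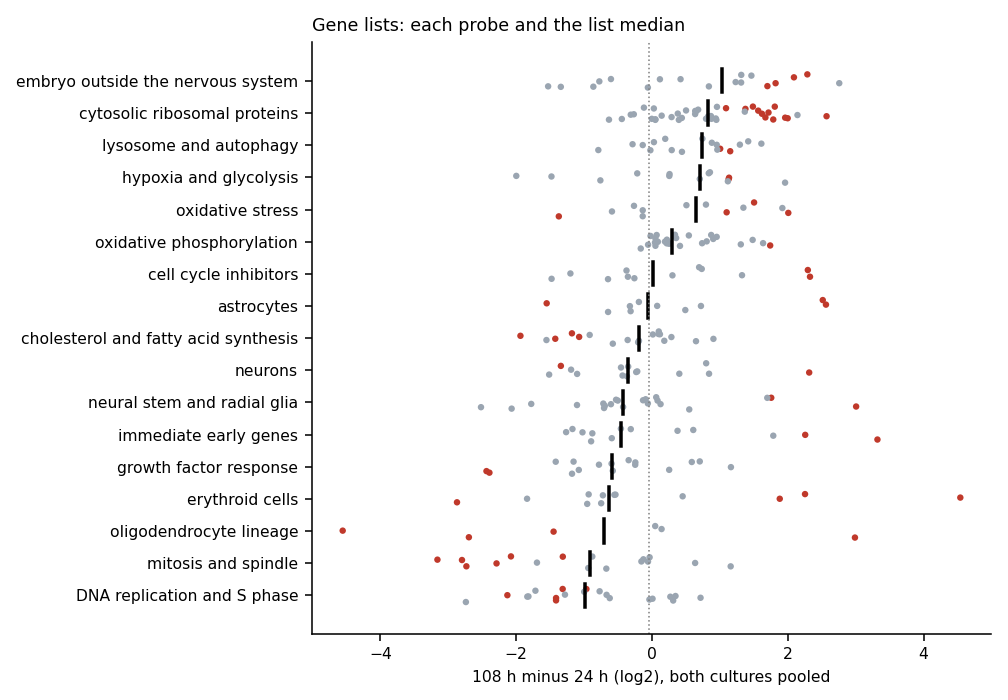
Difference of 108 h minus 24 h (log2, both cultures pooled) of every tested probe of 17 gene lists, 1 point per probe, with the black bar at the list median and the dotted line at the median of all probes (−0.04). Red points have an unadjusted p under 0.05. List medians run from −0.98 for DNA replication to 1.04 for embryonic tissues outside the nervous system.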

How the data were processed

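RNA of 12 neurosphere samples was measured on two-colour arrays. The deposited table holds log2 values for 21738 probes on 12 arrays, made by the authors from the scanned ratios. How the images were read and normalized is not given in the sources used here, and the number of arrays limits the precision. Groups and times came from the sample titles. Exact 0 and the top code 16.61 were set to missing, the median of the 4532 probes that all 12 arrays measured was subtracted from each array, and 10430 probes with 4 or more values at each time were tested (9303 with a name, 8902 genes). limma 3.58.1 in R 4.3.3 fitted time and culture (lmFit, eBayes), with Benjamini-Hochberg adjustment over all probes tested and a threshold of 0.05. Changes within a culture and the interaction came from a fit with 1 mean per group. Exact permutations of the times were run for single genes but are not given, since genes chosen for a small p with separate groups reach the smallest p allowed. The scripts were tested on simulated data. GEO's platform annotation, which can be old, gave 1 symbol for 16620 probes and several for 113, RefSeq accessions named 324 more, and 4681 stayed unnamed. Different probes of a gene were kept apart.

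The members and the 29 gene lists were chosen with earlier results of these data known. The text names Prom1, the probes with 1 symbol that passed and the next by smallest p up to 8 in each direction. These passing and next probes were taken only from those with the same sign in both cultures, with unnamed gene models passed over. Up to 4 members of a described list were named, again by p. Other list members and Ccnd2, Errfi1, Osmr, Nr4a2 and Rpl41 were chosen after their values were seen. No gene was named for the interaction alone, and some genes that the rule gives are not reported here. Alternatives changed centring, normalization, codes, filters, the model and the arrays used. The fit without both 24 h arrays numbered 1 was added after the data were seen. Promoter windows are RefSeq's, and Clu, Ccnd2, Rplp1 and Fdft1 had none.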

Additional observations from a re-analysis of the deposited data

Results flagged for a closer look

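In 18 of 188 groups of 4 to 6 arrays tested among the named genes (9.57%), 1 array stood apart by a gap that took up most of the range of its group; chance gives such a gap in about 1 of 20 groups. At 108 h there were 14 and at 24 h 4. The share of the range taken by the gap at 108 h was 0.817 for Cdk1 (control replicate 3, lowest), 0.811 for Pdgfra (control replicate 1, highest), 0.707 for Mt1 (prominin replicate 3, highest), 0.706 for Mt3 (prominin replicate 1, highest), 0.67 for Gata1 (prominin replicate 2, lowest), 0.666 for Nrgn (control replicate 1, lowest), 0.647 for Col5a3 (prominin replicate 2, lowest), 0.637 for Cycs (control replicate 1, highest) and 0.626 for Srebf2 (prominin replicate 1, lowest). Control replicate 2 at 108 h was the highest array for Cat (0.773), for 1 probe of Trf (0.726) and for Cdkn1a (0.719). Prominin replicate 2 at 108 h was the lowest for Sh3gl3 (0.649) and Ctsl (0.642). At 24 h the shares were 0.902 for Nusap1 (control replicate 3, lowest), 0.844 for Msn (prominin replicate 3, highest), 0.646 for Cycs (control replicate 1, highest) and 0.639 for 1 probe of Psap (control replicate 1, lowest). The causes were not tested.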

How the results depend on the processing

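Against 5 probes passing (4 higher, 1 lower), limma called 4 with no centring or with each array centred on its own probes, 5 with 1 common spread, 6 with quantile normalization, 3 with exact 0 kept, 1 with both codes kept, 17 with ratios of small whole numbers missing (10 higher, 7 lower), 1 with 2 or more values at each time, 26 with a value on all 12 arrays, 16 with no culture term, 4 with group means averaged or probes averaged to genes, 15 with no moderation of the variance, 8 with a robust variance trend and 9 with array weights. All calls had the same sign in both cultures, which a small pooled p favours, so the count of probes moving the same way in both was the same. Leaving out 1 array gave 1 to 17 calls, and leaving out both 24 h arrays numbered 1 gave 21. The interaction gave 23 calls with both codes kept, and 0 to 1 when 1 array was left out. The replicate block gave 1 call. The labels give no pairing, and the data gave no clear one. Same-numbered arrays of a culture had correlations of −0.05 to 0.08 between times (different numbers −0.12 to 0.12), and 4 of 12 arrays correlated best with their own number at the other time. Same-numbered arrays of prominin and control cultures had weak positive ones within a time, 0.02 to 0.12 (different numbers −0.12 to 0.05). The causes of these changes were not tested.

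The median over all probes was −0.24 with no centring, −0.22 with own-probe centring, −0.13 with quantile normalization, 0.40 with exact 0 kept and −0.38 with both codes kept. Some values that had not passed changed sign. Olig2 lay at −0.046 with no centring, −0.036 with own-probe centring, −1.03 with quantile normalization, between −0.027 (without prominin 24 h replicate 1) and 0.42 when 1 array was left out, and −0.20 without both 24 h arrays numbered 1. Glul lay at −0.39 with quantile normalization. With exact 0 kept, Hbb-y lay at −0.80, Apoa1 at −1.30, the second probe of Hba-x at −1.69 and the median of the embryonic list, relative to all probes, at −0.24. With both codes kept, Atf3 lay at −0.37, Hbb-y at −1.06, Apoa1 at −1.56 and that probe of Hba-x at −1.95. With probes averaged to genes, Mbp lay at 1.70 and Srebf2 at 0.016. The second probe of Psap lay between −0.013 (without control 24 h replicate 1) and 0.47 when 1 array was left out, and at −0.13 without both 24 h arrays numbered 1. The 24 h arrays had fewer measured probes. Signal over background was not analysed here.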
